A study of Mus musculus with 12 samples.

Results

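The genes that drive the synaptic vesicle cycle were followed here in mouse embryonic dorsal cortex with and without Ash2l. They were chosen by symbol, as the synaptotagmins (Syt), syntaxins (Stx), syntaxin-binding proteins (Stxbp), synaptobrevins and relatives (Vamp), synapsins (Syn), synaptophysin (Syp), SV2 proteins (Sv2), SNAP proteins (Snap), complexins (Cplx), Rab3 GTPases and Unc13 proteins. The symbols pick out 70 of the 27179 genes in the count tables. The rule reads symbols and no measured value, though it was set with earlier results of these data known. RNA came from 4 groups of 3 libraries each: conditional knockout (cKO) at E16.5, wild type (WT) at E16.5, cKO at E14.5 and WT at E14.5, all from C57BL/6 dorsal cortex. In cKO embryos the Ash2l gene is deleted by Cre recombinase expressed from D6, an enhancer active in the dorsal telencephalon. Cells keep the gene where D6 was active neither in them nor in the cells they descend from. Ash2l encodes a subunit shared by the COMPASS enzymes, whose product, methylated lysine 4 of histone H3, is found at CpG-rich promoters. Within an age, every cKO library has a number in its title that 1 WT library also carries. Libraries are therefore called A, B and C within a group, in ascending order of that number, and values of a group are given in this order. What the number stands for, and whether a library is 1 embryo, is not in the labels, so a p-value reflects library-to-library spread that may be partly technical.

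Release of neurotransmitter runs through a fixed set of parts. Vesicles carrying Vamp2 dock at the plasma membrane, where syntaxins such as Stx1a wait with Snap25, and the zippering of these SNARE proteins fuses the membranes. Syntaxin-binding proteins hold syntaxin and help the assembly, Unc13 proteins (Munc13) open syntaxin and prime the vesicle, and Rab3 GTPases tether it. Complexins clamp and activate the assembled SNAREs, and synaptotagmins such as Syt1 trigger fusion when calcium binds. Synapsins tie vesicles into a reserve pool, while Syp and the Sv2 proteins are integral to the vesicle membrane. At these ages the cortex holds dividing progenitors beside young neurons that have formed few synapses, and the same proteins also serve axon growth and general membrane traffic.

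Upstream sequences of 4 genes are shown because 3 of them (Stxbp2, Syt16 and Cplx1) are among the lower genes described below and 1 (Stx4a) is a higher one, and because the mark that COMPASS writes sits at CpG-rich promoters. Each is the 250 bases just before the start that RefSeq gives in GRCm38.p6, the assembly also called mm10, read 5′ to 3′ on the gene's strand, with CG dinucleotides in capitals. For Cplx1 and Stx4a that start is also where the count annotation begins, while for Stxbp2 it lies 51 bases upstream of it and for Syt16 16 bases downstream.
Stxbp2, chr8:3630859-3631108, plus strand: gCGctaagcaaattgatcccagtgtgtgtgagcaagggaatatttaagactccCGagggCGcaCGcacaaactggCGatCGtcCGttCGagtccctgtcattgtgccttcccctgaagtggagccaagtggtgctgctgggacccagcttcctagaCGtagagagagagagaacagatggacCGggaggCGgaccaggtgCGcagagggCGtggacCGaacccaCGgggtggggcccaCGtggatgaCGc
Syt16, chr12:73997527-73997776, plus strand: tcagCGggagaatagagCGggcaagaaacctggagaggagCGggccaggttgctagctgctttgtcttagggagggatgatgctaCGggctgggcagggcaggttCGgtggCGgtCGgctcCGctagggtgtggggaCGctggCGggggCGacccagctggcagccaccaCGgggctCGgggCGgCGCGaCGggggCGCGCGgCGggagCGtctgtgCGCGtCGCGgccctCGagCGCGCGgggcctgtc
Cplx1, chr5:108550028-108550277, minus strand: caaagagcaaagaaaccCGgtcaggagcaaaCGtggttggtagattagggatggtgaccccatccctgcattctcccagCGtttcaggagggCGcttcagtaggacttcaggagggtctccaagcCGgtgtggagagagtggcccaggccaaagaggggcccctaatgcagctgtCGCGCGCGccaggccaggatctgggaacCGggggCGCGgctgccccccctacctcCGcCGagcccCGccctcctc
Stx4a, chr7:127841558-127841807, plus strand: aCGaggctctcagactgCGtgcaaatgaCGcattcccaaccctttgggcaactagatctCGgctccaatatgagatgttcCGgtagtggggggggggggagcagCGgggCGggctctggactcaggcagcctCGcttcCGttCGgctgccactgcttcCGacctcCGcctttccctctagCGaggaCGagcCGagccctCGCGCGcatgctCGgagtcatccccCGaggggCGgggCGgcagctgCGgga
The CG count was 17 in the Stxbp2 window, 30 for Syt16, 15 for Cplx1 and 23 for Stx4a. A window was at hand for 53 of the 70 genes. The median CG count was 15 for the 18 lower genes with a window, 17 for the 3 higher genes and 16 for the 25 genes not past the threshold, against 16 for the 10788 tested genes with a window. A GC box (GGGCGG on either strand) stood in 77.8% of the lower, all 3 of the higher and 68.0% of the other tested genes, against 60.7% of all tested genes. The half-site TGACG, on either strand, stood in 22.2%, 33.3% and 24.0% of the same groups, against 27.4% of all. Lower and higher genes alike thus had CpG counts near those of the whole transcriptome, and a match of letters is no evidence of binding.

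Libraries held 14318147 to 24719047 counted fragments. Levels are CPM, counts brought to a common library size with TMM factors, and FPKM, CPM per kilobase of exons, where genes are compared with each other. Ash2l itself averaged 58.1 ± 3.31 CPM in cKO and 133 ± 3.56 CPM in WT at E16.5, and 52.8 ± 6.61 CPM in cKO and 129 ± 12.9 CPM in WT at E14.5 (SD, n = 3 each). In all 6 cKO libraries it was below every WT library. Judged by Xist and Y-linked genes, the E14.5 cKO libraries were all female and the E14.5 WT libraries all male, so sex and genotype cannot be told apart at that age. At E16.5 each genotype had 1 female and 2 male libraries. Summed levels of 12 pan-neuronal markers, none of them at 0, ran from 5017 to 5284 CPM in cKO and from 6725 to 7208 CPM in WT at E16.5, and 8 of the 12 were lower. At E14.5 they ran from 2611 to 4546 CPM in cKO and from 4561 to 6496 CPM in WT. Summed levels of 10 apical progenitor markers ran from 1472 to 1968 CPM in cKO and from 1334 to 1688 CPM in WT at E16.5, where 3 of the 10 were higher and none lower. At E14.5 they ran from 2054 to 2197 CPM in cKO and from 1778 to 1952 CPM in WT, with 1 of the 10 higher, so the cKO sums were all above the WT sums at that age only. In bulk tissue fewer neurons and less RNA per neuron cannot be told apart, and the part of neuronal and progenitor content in the changes below was not tested. The neuronal ratios given further on are a description and do not test that part. Other tissue markers singled out cKO A of E14.5, with meningeal markers at 340 CPM against 12.4 to 41.0 CPM in E14.5 WT, and WT B of E14.5, with GABAergic markers at 320.5 CPM against 67.3 and 129 CPM in the other E14.5 WT libraries. Choroid plexus markers reached 623 CPM in E16.5 WT C and 480 CPM in E14.5 WT A, against at most 58.5 CPM in any cKO library. The other WT libraries had 7.86 and 25.7 CPM at E16.5 and 31.1 and 40.15 CPM at E14.5, no higher than that.

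At E16.5, 24 of the 61 vesicle and SNARE genes that passed the filter on low counts changed in cKO cortex (edgeR, adjusted p under 0.05), where 15.9% of all 14865 tested genes did. Of these, 21 were lower, against 9.88% of all tested genes, and 3 were higher (Stx4a, Unc13b and Stx18), against 5.98%. The lower ones included most of the calcium-sensing synaptotagmins (6 of 7), both complexins that could be tested, 2 of 3 synapsins, 3 of 4 vesicle membrane proteins and 2 of 4 Rab3 genes. The rest were 2 of 7 syntaxin-binding proteins, 2 of 7 other synaptotagmins, 1 of 5 plasma membrane syntaxins and 1 of 8 endosomal and Golgi/ER syntaxins. None of the 5 Snap and none of the 5 Vamp genes tested passed the threshold in the main edgeR fit or in DESeq2, although Vamp1 had an unadjusted p under 0.05. The median log2 fold change was -0.24 over the 61 genes and 0.018 over all tested genes. The other 9 of the 70 did not pass the filter and were not tested: Vamp5, Vamp7, Syt8, Syt10, Syt15, Cplx3, Cplx4, Stx11 and Stx19. In 26 of the 61 every cKO value was under every WT value (18.3% of all tested genes), and in 7 all lay above (19.2%). With the shared title number as a block, which pairs each cKO with 1 WT library at this age, 39 passed, 28 of them lower and 11 higher, against 17.9% and 14.3% of all tested genes. Those that passed with the block and not in the main fit included Rab3a, Rab3c, Snap23, Snap47, Stx1a, Stx5a and Stx6. Sv2b, Syn3, Syt4, Unc13d, Vamp1 and Vamp3 did so too. Of the 24 calls, 16 held whichever single library was left out. The matching share of all called genes is not given here. Between 6.5% and 19.0% of all tested genes passed with 1 library left out.

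**Figure D1:**
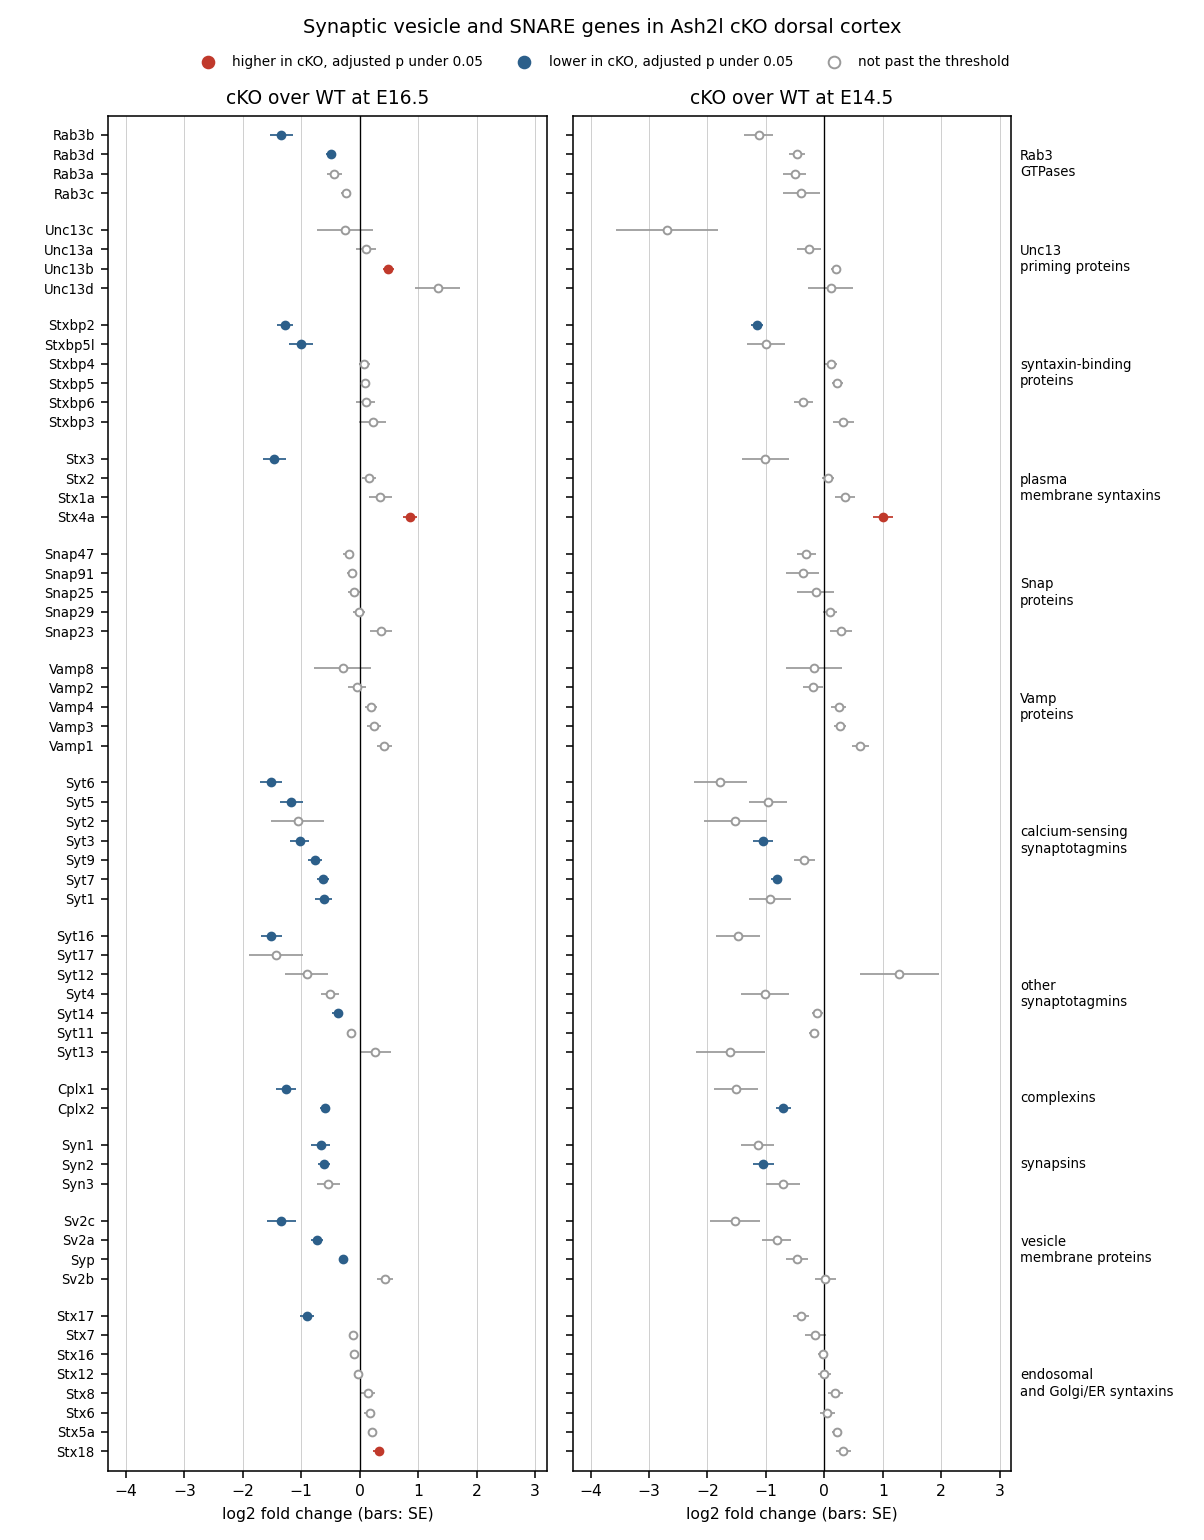
Log2 fold change of cKO over WT with its standard error for 59 of the genes tested at E16.5 (left) and the 58 of them tested at E14.5 (right), grouped by role, with filled points past an adjusted p of 0.05 (blue lower, red higher in cKO). Synaptotagmins, complexins, synapsins and Sv2 genes lie mostly left of 0, while Snap and Vamp genes lie around it, and 21 genes are blue at E16.5 against 5 at E14.5.

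Among the Rab3 GTPases, which tether vesicles, Rab3b and Rab3d fell. Rab3b read 4.25, 3.63 and 3.7 CPM in the cKO libraries, against 11.9, 9.88 and 7.59 CPM in the WT libraries, a log2 fold change of -1.34 (SE 0.20, adjusted p = 0.00505). For Rab3d, best known from exocrine secretory granules, the cKO libraries gave 44.6, 43.6 and 39.7 CPM and the WT libraries 60.9, 56.3 and 62.02 CPM (-0.49, SE 0.08, adjusted p = 0.00701). The groups did not overlap for either gene. Rab3a, the main synaptic form, had 66.04, 53.05 and 47.6 CPM in cKO and 82.97, 72.3 and 69.9 CPM in WT libraries. Its cKO libraries also lay below all WT libraries, but its change of -0.44 (SE 0.13) missed the threshold with an adjusted p of 0.0548, and it passed with the block (0.000681), with DESeq2 (0.0162), with no filter on low counts (0.0373) and without cKO A (0.00498). Rab3c was also below WT in every cKO library, with a log2 fold change of -0.23 (SE 0.084, adjusted p = 0.0977). Among the Unc13 priming proteins 1 of 4 changed. Unc13b (Munc13-2) rose, with 206, 174 and 169 CPM in cKO, against 138, 127 and 123 CPM in WT (0.49, SE 0.091, adjusted p = 0.0114), and every cKO library was above every WT library. Without WT B its adjusted p was 0.0591. Unc13a (Munc13-1), the main form at cortical synapses, had a log2 fold change of 0.11 (SE 0.18, adjusted p = 0.717) and overlapping groups. Unc13c averaged 1.68 ± 0.501 CPM in cKO and 1.97 ± 1.33 CPM in WT, and Unc13d 1.01 ± 0.302 CPM in cKO and 0.399 ± 0.0577 CPM in WT (SD, n = 3 each), with adjusted p of 0.76 and 0.0501.

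Stxbp2 (Munc18-2), a partner of syntaxins in the secretion of granules by immune and epithelial cells, had the smallest p of all the genes considered here. Its level was 11.3, 11.6 and 15.1 CPM in cKO libraries and 31.6, 31.8 and 27.8 CPM in WT libraries, that is 0.413 times the WT level (-1.27, SE 0.13, adjusted p = 0.00191). The highest cKO library, C, was far below the lowest WT library. The gene lies on the plus strand of chromosome 8, from 3631160 to 3643644 in mm10, with 19 exon blocks in the count annotation. Stxbp5l (tomosyn-2), which holds syntaxin and Snap25 in complexes unable to fuse, also fell, with 13.7, 22.7 and 21.6 CPM in cKO and 32.6, 45.1 and 37.8 CPM in WT (-1.001, SE 0.20, adjusted p = 0.0154). Leaving out WT B brought its adjusted p to 0.0682. Their relatives Stxbp3, Stxbp4, Stxbp5 and Stxbp6 had log2 fold changes between 0.079 and 0.22, none past the threshold.

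The plasma membrane syntaxins split by direction. Stx3, the syntaxin of retinal ribbon synapses and of apical epithelial membranes, was low throughout and lower in cKO, with 2.23, 2.65 and 1.85 CPM in cKO and 5.73, 6.62 and 6.26 CPM in WT libraries. That is a log2 fold change of -1.46 (SE 0.20, adjusted p = 0.00371) with no overlap. Stx4a, the mouse syntaxin 4 known from insulin-stimulated exocytosis of glucose transporters, went the other way. It had 13.4, 14.9 and 12.6 CPM in cKO and 7.22, 7.67 and 7.64 CPM in WT libraries, or 1.81 times the WT level (0.86, SE 0.12, adjusted p = 0.00453). The lowest cKO library stood well above the highest WT library. Stx1a, a syntaxin of neuronal release sites, and Stx2 were not past the threshold, with log2 fold changes of 0.35 (SE 0.19) and 0.16 (SE 0.12). With the block Stx1a passed (adjusted p = 0.00957). Stx11 had at most 10 counts in any library and was not tested, and Stx19 was listed at 0 counts in all 12 libraries, which allows a level of up to between 0.121 and 0.21 CPM by library depth.

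The partners of syntaxin in the core complex are Snap25 and the synaptobrevins. Snap25 read 119, 112 and 98.5 CPM in cKO and 113, 129 and 110.0 CPM in WT, with overlapping groups and a log2 fold change of -0.098 (SE 0.097, adjusted p = 0.533). Snap47, a relative found on intracellular membranes, had 129, 109.9 and 106 CPM in cKO and 141, 123 and 126 CPM in WT (-0.19, SE 0.094, adjusted p = 0.218). Its groups overlapped too, and it passed only with the block (adjusted p = 0.0171) and, at 0.0423, with cKO A left out. Vamp2, the synaptobrevin of most cortical synapses, gave 181, 145 and 120.0 CPM in cKO and 178, 150.4 and 133 CPM in WT (-0.049, SE 0.16, adjusted p = 0.867). The sign of that small value turned when WT A or cKO C was left out. Vamp1, its relative in spinal cord and brain stem, was higher in every cKO library, with 10.2, 11.8 and 10.2 CPM in cKO and 8.07, 8.19 and 7.59 CPM in WT. Its change of 0.42 (SE 0.13) had an adjusted p of 0.0595, and it passed with the block (0.0289), with library totals alone (0.0458) and in the 12-library fit (0.0397). Snap23, Snap29 and Snap91, the last an endocytic adaptor, had log2 fold changes of 0.36, -0.01 and -0.13. Vamp3 and Vamp4, of recycling endosomes and the trans-Golgi network, had 0.24 and 0.19, and Vamp8 had -0.29, none past the threshold. Of these genes Snap23 (adjusted p = 0.0147) and Vamp3 (0.0207) passed with the block. Vamp5 was not tested, and Vamp7, annotated in the count tables on a contig and not on a chromosome, was listed at 0 counts in all libraries, which is not read as its level.

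Of the 7 calcium-sensing synaptotagmins tested, 6 fell at E16.5, and the class median log2 fold change was -1.02. Syt6, a form best known from the sperm acrosome, read 12.6, 11.8 and 12.6 CPM in cKO and 35.6, 25.9 and 44.2 CPM in WT libraries (-1.52, SE 0.19, adjusted p = 0.00288). The 3 cKO libraries agreed closely, and the WT libraries, which varied more, were all above them. Syt3, a high-affinity calcium sensor, had 6.91, 8.92 and 6.8 CPM in cKO and 15.02, 17.5 and 13.4 CPM in WT (-1.02, SE 0.16, adjusted p = 0.00639). Syt5, found on dense-core vesicles, had 13.3, 11.4 and 8.58 CPM in cKO and 28.5, 26.7 and 19.8 CPM in WT (-1.17, SE 0.19, adjusted p = 0.00756). Both were lower in each cKO library than in any WT library. Syt7, the slow sensor behind asynchronous release, read 56.9, 51.96 and 52.7 CPM in cKO and 95.1, 78.5 and 73.6 CPM in WT (-0.62, SE 0.10, adjusted p = 0.00773). Syt9, a fast sensor in some forebrain neurons, read 10.3, 8.56 and 9.44 CPM in cKO and 15.1, 16.6 and 16.4 CPM in WT (-0.77, SE 0.12, adjusted p = 0.00595). Again neither pair of groups overlapped. Syt1, the main fast sensor of cortical neurons, is given for its role and was picked after its values were seen. It had 73.9, 64.3 and 61.8 CPM in cKO and 122, 103 and 81.3 CPM in WT (-0.62, SE 0.14, adjusted p = 0.025). That call was lost without WT A, WT B, cKO B or cKO C, with adjusted p up to 0.0999. Syt2, low at 0.888 ± 0.301 CPM in cKO and 1.85 ± 0.872 CPM in WT (SD, n = 3 each), was not past the threshold (-1.06, SE 0.45), and Syt10 had at most 7 counts in a library.

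Of the other synaptotagmins, which mostly lack calcium-binding residues, 2 of 7 fell. Syt16 read 15.2, 11.8 and 12.3 CPM in cKO and 47.2, 33.2 and 31.4 CPM in WT libraries, 0.351 times the WT level (-1.51, SE 0.18, adjusted p = 0.00261). No cKO library came near the lowest WT library. Syt14 had 26.4, 25.7 and 29.7 CPM in cKO and 37.9, 33.8 and 33.96 CPM in WT (-0.38, SE 0.093, adjusted p = 0.0316). Its call was lost without WT A, WT B, WT C or cKO B, with adjusted p from 0.076 to 0.129. Syt11, a synaptotagmin that does not bind calcium and the most abundant of the 70 genes at 84.2 FPKM, gave 344, 379.6 and 368 CPM in cKO and 398, 385 and 414 CPM in WT. Every cKO library was below every WT library, yet the change of -0.14 (SE 0.066, adjusted p = 0.185) was small and not past the threshold. Syt4 had -0.50 (SE 0.16, adjusted p = 0.0652). Syt12, Syt13 and Syt17 were all under 1 FPKM with log2 fold changes between -1.43 and 0.27, none past the threshold, and Syt8 and Syt15 were not tested.

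Both complexins with enough counts fell. Cplx1, which clamps and then promotes fusion in mature neurons, read 17.4, 12.2 and 12.2 CPM in cKO and 38.9, 28.6 and 32.9 CPM in WT (-1.27, SE 0.17, adjusted p = 0.00404). Cplx2, the more abundant form at 32.7 FPKM, had 147, 130.0 and 129 CPM in cKO and 218, 193 and 201 CPM in WT (-0.60, SE 0.077, adjusted p = 0.00322). No library of either group crossed into the other, and both calls held with any 1 library left out. Cplx3 and Cplx4, known from retinal ribbon synapses, had at most 2 counts and 1 count in a library.

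**Figure D2:**
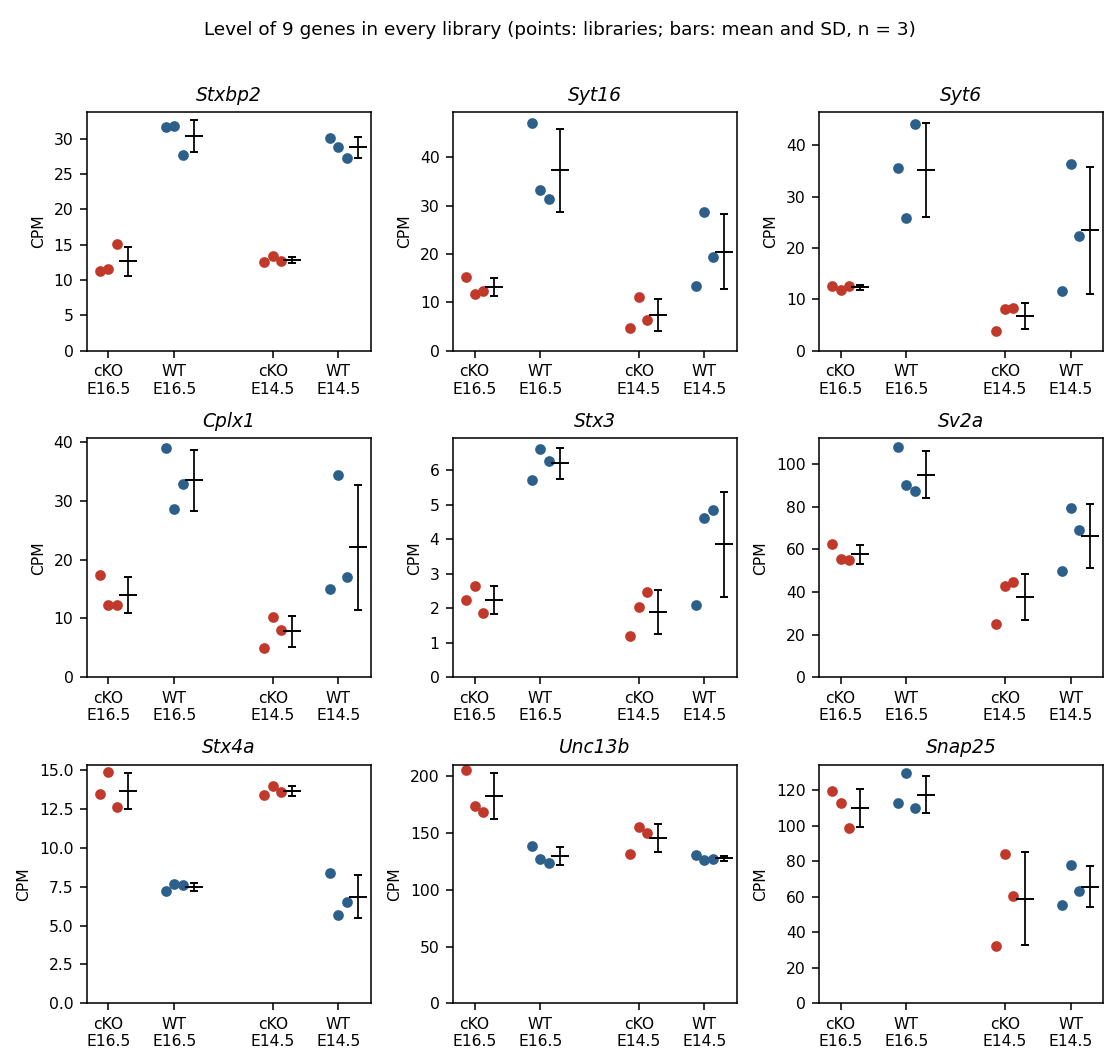
CPM of 9 genes in each library, cKO red and WT blue, at E16.5 and E14.5, with mean and SD (n = 3) as black bars. Stxbp2, Syt16, Syt6, Cplx1, Stx3 and Sv2a are lower and Stx4a and Unc13b higher in every E16.5 cKO library than in any E16.5 WT library, while Snap25 overlaps.

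Of the synapsins 2 of 3 fell, and of the vesicle membrane proteins 3 of 4. Syn1, on the X chromosome, gave 46.2, 35.3 and 30.3 CPM in cKO and 67.5, 58.6 and 50.8 CPM in WT (-0.67, SE 0.17, adjusted p = 0.0327). Syn2 gave 34.7, 43.9 and 41.5 CPM in cKO and 59.1, 65.7 and 57.6 CPM in WT (-0.61, SE 0.11, adjusted p = 0.00884). Neither overlapped, and Syn3 (-0.53, SE 0.19, adjusted p = 0.0949) was not past the threshold. Sv2a, the binding site of the antiepileptic drug levetiracetam, had 62.8, 55.4 and 54.9 CPM in cKO and 108, 90.2 and 87.3 CPM in WT (-0.73, SE 0.1, adjusted p = 0.00401). Sv2c, in adult brain mostly a basal ganglia form, was scarce at 1.91, 1.61 and 1.52 CPM in cKO and 5.47, 3.72 and 3.59 CPM in WT (-1.34, SE 0.25, adjusted p = 0.0115). Syp, synaptophysin, also X-linked, had 79.2, 71 and 69.6 CPM in cKO and 92.4, 89.5 and 83.9 CPM in WT (-0.28, SE 0.077, adjusted p = 0.0444). All 3 had cKO libraries below every WT library, whereas Sv2b was above in every cKO library with a change of 0.44 (SE 0.13, adjusted p = 0.0619). Several of these calls were lost when 1 library was left out. Syn1 lost its call without WT A, WT B, cKO B or cKO C (adjusted p from 0.0666 to 0.122), Sv2c without cKO B (0.0563), and Syp without any 1 library other than cKO A (0.0596 to 0.155). With embryo sex in the fit the X-linked pair had adjusted p of 0.0632 for Syn1 and 0.0878 for Syp, at log2 fold changes of -0.67 and -0.28 as without it. Syt1 and Stx18, which are not X-linked, also lost their calls in that fit.

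Syntaxins of endosomes, Golgi and endoplasmic reticulum stood mostly near 0, with a class median of 0.059. Stx17, the syntaxin of autophagosomes, fell to 15.7, 19.3 and 20.4 CPM in cKO, against 31.7, 34.3 and 36.4 CPM in WT (-0.89, SE 0.12, adjusted p = 0.00358), with no overlap. Stx18, of the endoplasmic reticulum, had 24.2, 22.04 and 22.9 CPM in cKO and 17.9, 18.4 and 18.6 CPM in WT (0.33, SE 0.09, adjusted p = 0.0459). The groups did not overlap, but its call was lost whichever library was left out (adjusted p from 0.0837 to 0.138). Stx12, of recycling endosomes, read 118, 113 and 106 CPM in cKO and 114, 113 and 114 CPM in WT (-0.022, SE 0.065, adjusted p = 0.852), and its sign turned with library totals alone and without cKO C. Stx6, of the trans-Golgi network, read 134, 117 and 108 CPM in cKO and 112, 105 and 99.3 CPM in WT (0.18, SE 0.094, adjusted p = 0.244). Both genes overlapped between genotypes, and Stx6 passed only with the block (adjusted p = 0.0331). The remaining Stx5a, Stx7, Stx8 and Stx16 had log2 fold changes between -0.12 and 0.22, none past the threshold.

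Levels and changes were also set side by side. By mean FPKM over all libraries the 8 highest genes, among them Syt11, Snap47, Vamp2, Stx12, Snap25, Stx6 and Rab3a, ran from 84.2 to 40.4 FPKM, and none of them passed the threshold at E16.5. Among the 20 highest (down to 18.7 FPKM) 3 passed, 2 of them lower, and among the other 41 (from 17.9 FPKM) 21 passed, 19 of them lower. The first share is near the 15.9% of all tested genes, and the difference between these groups of members was not tested. The median level was 8.02 FPKM for the 21 lower genes and 12.7 FPKM for the 37 not past the threshold. As a description, Spearman's rho between level and log2 fold change was 0.26 over the 61 genes and 0.053 over all 14865 tested genes, where points share libraries and low levels carry larger errors.

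**Figure D3:**
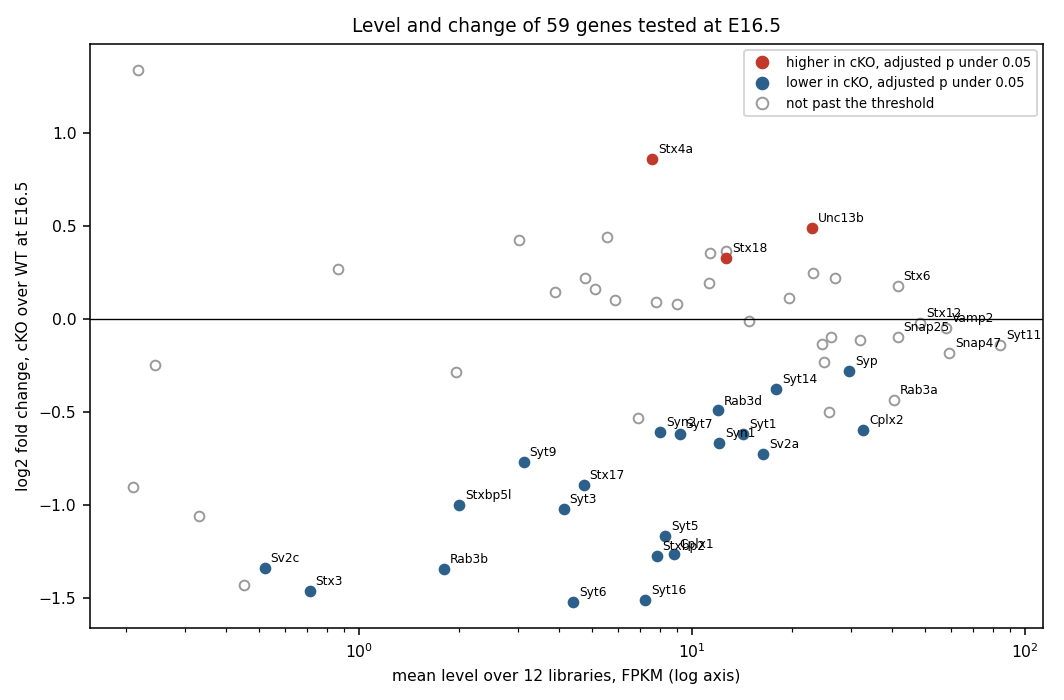
Mean level in FPKM over 12 libraries (log axis) against the log2 fold change of cKO over WT at E16.5 for 59 genes, blue and red where the adjusted p is under 0.05. Blue points are spread between 0.521 FPKM (Sv2c) and 32.7 FPKM (Cplx2), and the 7 most abundant genes drawn are all open points.

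Within a library, the ratio of 2 relatives does not depend on how libraries were scaled. Each ratio sets the gene with the smallest p of its class at E16.5 over the most abundant tested gene of that class. The FPKM ratio of Rab3b to Rab3a was 0.0282, 0.0299 and 0.034 in E16.5 cKO libraries, against 0.0626, 0.0597 and 0.0475 in WT libraries. For Syt16 to Syt11 it was 0.0747, 0.0526 and 0.0567 in cKO and 0.2, 0.146 and 0.128 in WT, and for Syt6 to Syt1 0.185, 0.201 and 0.223 in cKO and 0.32, 0.274 and 0.594 in WT. All 3 ratios were lower in each E16.5 cKO library than in any WT library. Because the first gene was picked by its p at E16.5, that separation is no independent support for its change. Sv2a to Syp was 0.502, 0.494 and 0.499 in cKO, almost constant, and 0.74, 0.638 and 0.659 in WT. Syn2 to Syn1 was 0.428, 0.708 and 0.779 in cKO and 0.498, 0.638 and 0.645 in WT, so the 2 synapsins kept overlapping proportions while both were lower. A ratio shows that 2 genes changed unequally and not which of them changed.

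**Figure D4:**
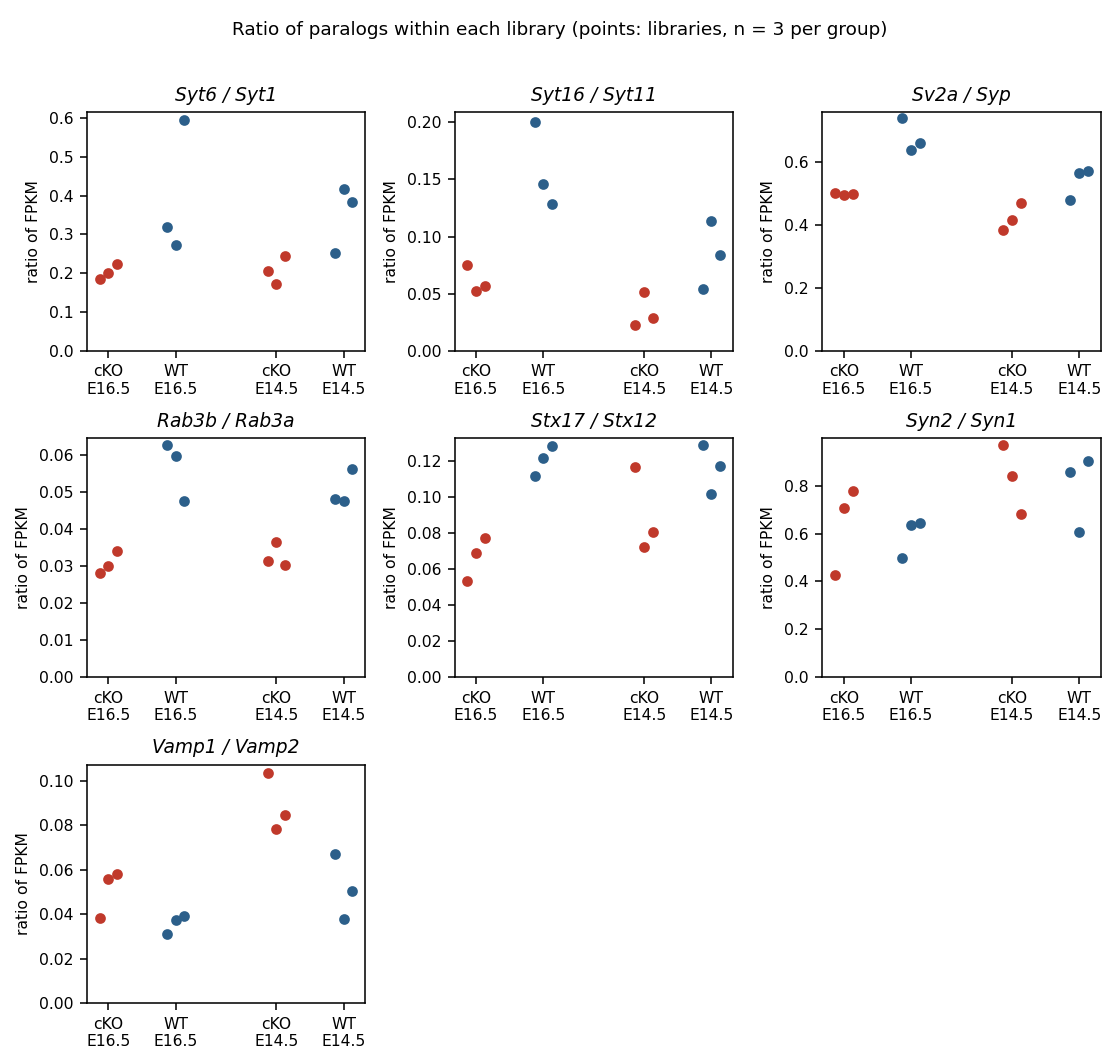
FPKM of the gene with the smallest E16.5 p in its class, over that of the class's most abundant tested gene. Both are from the same library, for 7 classes, cKO red and WT blue, at E16.5 and E14.5. At E16.5 the ratios for Syt6, Syt16, Sv2a, Rab3b and Stx17 separate cKO below WT, whereas Syn2 over Syn1 overlaps and Vamp1 over Vamp2 overlaps.

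Since neuronal markers were lower in cKO cortex, each gene was also set against the summed pan-neuronal markers of its own library. At E16.5 that ratio was below all WT libraries in all cKO libraries for 12 of the 61 genes, against 5.03% of all tested genes, and above for 28, against 61.6%. The 12 were all among the 21 lower genes: Rab3b, Syt3, Syt5, Syt6, Syt9, Syt16, Cplx1, Stx3, Stx17, Stxbp2, Sv2a and Sv2c. Because the marker sum was itself lower in cKO, a ratio below WT needs a larger fall than that of the sum. The same libraries also gave the calls, so this overlap is no independent support for them. The mean log2 ratio differed between cKO and WT by -1.03 for Syt6, -1.04 for Syt16 and -1.03 for Stx3. Another 8 of the lower genes overlapped on this scale, among them Cplx2 at a difference of -0.14, Syt1 at -0.14, Syn1 at -0.22 and Syn2 at -0.15. Syp had a ratio above WT in every cKO library (0.18).

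At E14.5, 6 of the 60 genes tested passed the threshold, where 2.01% of all 14788 tested genes did. They were Stxbp2, Syt7, Syt3, Syn2 and Cplx2, lower (5 of 60, against 1.66% of all), and Stx4a, higher (1 of 60, against 0.352%). All 6 also changed in the same direction at E16.5, and the share of all E14.5 calls that did so is not given here. Stxbp2 had 12.5, 13.4 and 12.6 CPM in cKO and 30.2, 28.9 and 27.3 CPM in WT libraries (-1.15, SE 0.10, adjusted p = 0.0106). Stx4a had 13.4, 14.01 and 13.6 CPM in cKO and 8.4, 5.69 and 6.51 CPM in WT (1.001, SE 0.17, adjusted p = 0.0377). The cKO libraries of both genes were nearly alike and far from every WT library. Syt7 read 41.6, 43.1 and 44.9 CPM in cKO and 68.8, 81.3 and 79.9 CPM in WT (-0.82, SE 0.099, adjusted p = 0.0189). Syt3 read 5.22, 6.27 and 6.32 CPM in cKO and 11.1, 14.8 and 11.2 CPM in WT (-1.05, SE 0.18, adjusted p = 0.0377). Neither synaptotagmin overlapped between genotypes. Syn2 read 20.6, 34.01 and 23.97 CPM in cKO and 49.6, 58.3 and 54.6 CPM in WT (-1.04, SE 0.18, adjusted p = 0.0392), and Cplx2 read 103, 122 and 122 CPM in cKO and 172, 221 and 175 CPM in WT (-0.70, SE 0.13, adjusted p = 0.0407). Here too all cKO libraries were below all WT libraries. None of the 6 calls held whichever library was left out: without WT C or without cKO C no gene of the 60 passed (adjusted p of the 6 from 0.0885 to 0.194), where 0.0336% and 0.0334% of all tested genes did. With embryo sex as a term, estimated from the E16.5 libraries, Stxbp2, Syt7 and Stx4a passed, against 0.835% of all.

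The median log2 fold change at E14.5 was -0.35 over the 60 genes and 0.025 over all tested genes, and 33 of the 60 had an unadjusted p under 0.05, as did 20.2% of all tested genes. In 22 every cKO value was under every WT value (14.8% of all tested genes) and in 9 above (11.9%). For several genes the log2 fold change was as large as at E16.5 and its SE larger. Syt6 had 3.77, 8.22 and 8.33 CPM in cKO and 11.6, 36.4 and 22.4 CPM in WT, with a log2 fold change of -1.78 but an SE of 0.45 (adjusted p = 0.0924). Syt16 had 4.63, 11.1 and 6.36 CPM in cKO and 13.3, 28.8 and 19.3 CPM in WT (-1.48, SE 0.37, adjusted p = 0.0913). Cplx1 had 5.005, 10.2 and 8.04 CPM in cKO and 14.9, 34.3 and 17.1 CPM in WT (-1.50, SE 0.38, adjusted p = 0.0885). For all 3 the lowest cKO library was A and the highest WT library was B, the libraries whose pan-neuronal sums were lowest in cKO and highest in WT. With both set aside, 10 genes passed, 8 lower (3.51% of all tested genes) and 2 higher (0.641%), and they held all 6.

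Other genes described at E16.5 had these E14.5 values. Rab3b read 2.31, 3.97 and 3.37 CPM in cKO and 5.85, 8.28 and 7.01 CPM in WT, Rab3d 28.9, 39.1 and 36.7 CPM in cKO and 43.4, 54.6 and 47.5 CPM in WT. Rab3a read 32.3, 47.7 and 48.6 CPM in cKO and 53.2, 76.1 and 54.5 CPM in WT. All 3 Rab3 genes had cKO libraries below every WT library, with log2 fold changes of -1.12, -0.47 and -0.51. Unc13b read 132, 156 and 149.9 CPM in cKO and 130.5, 126 and 127 CPM in WT (0.20, SE 0.088, adjusted p = 0.259). Stxbp5l gave 7.86, 20.6 and 10.4 CPM in cKO and 21.2, 27.1 and 29.1 CPM in WT (-1.002). In both the groups were apart, Unc13b above and Stxbp5l below in cKO. Stx3 gave 1.18, 2.02 and 2.46 CPM in cKO and 2.1, 4.62 and 4.85 CPM in WT (-1.01) with 1 WT library among the cKO values. The core complex read 32.3, 84.1 and 60.5 CPM in cKO and 55.4, 78.1 and 63.3 CPM in WT for Snap25 (-0.15), and 78.5, 97.6 and 102 CPM in cKO and 88.2, 132 and 100.5 CPM in WT for Vamp2 (-0.20), both overlapping, and the sign of both turned positive with WT B and cKO A set aside. Snap47 read 68.2, 101 and 84.5 CPM in cKO and 86.6, 119 and 110.1 CPM in WT (-0.31), also overlapping. Vamp1 was higher in every cKO library at 11.8, 11.2 and 12.6 CPM, against 8.65, 7.33 and 7.38 CPM in WT (0.62, SE 0.14, adjusted p = 0.0751).

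Among synaptotagmins at E14.5, Syt5 read 5.06, 10.2 and 7.39 CPM in cKO and 9.4, 19.4 and 15.3 CPM in WT (-0.96), Syt9 11.9, 7.81 and 9.48 CPM in cKO and 12.3, 13.3 and 11.9 CPM in WT (-0.34). Both overlapped between genotypes. Syt14 read 28.1, 30.4 and 29.6 CPM in cKO and 31.1, 32.5 and 32.7 CPM in WT (-0.12), and Syt11 350.5, 366 and 369 CPM in cKO and 418, 428 and 391 CPM in WT (-0.18). Those 2 were slightly lower in every cKO library. Syn1 read 12.1, 23 and 19.9 CPM in cKO and 32.8, 54.7 and 34.4 CPM in WT (-1.14, SE 0.28, adjusted p = 0.0834). Syp read 41.3, 64.8 and 60.5 CPM in cKO and 65.8, 89.4 and 76.9 CPM in WT (-0.47). For this X-linked pair the female cKO libraries were the lower ones. Sv2a read 25.1, 42.6 and 44.8 CPM in cKO and 49.8, 79.7 and 69.2 CPM in WT (-0.81), and Sv2c 0.538, 0.558 and 1.11 CPM in cKO and 1.35, 2.28 and 2.95 CPM in WT (-1.52), neither overlapping. Stx17 read 27.4, 23.4 and 22.3 CPM in cKO and 35.4, 28.01 and 33.97 CPM in WT (-0.40), and Stx18 21.5, 22.4 and 18.9 CPM in cKO and 18.6, 16.4 and 15.4 CPM in WT (0.33). Their groups were apart in the same directions as at E16.5. Stx12 read 94.3, 129.8 and 112 CPM in cKO and 110.3, 111 and 116 CPM in WT, and Stx6 75.1, 103 and 101 CPM in cKO and 90.1, 96.5 and 84.04 CPM in WT, both overlapping. Syt17, tested at E16.5 only, was too low at E14.5.

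The difference of the cKO effect between ages was tested directly in a fit of all 12 libraries. None of the 61 genes passed (edgeR), where 0.0% of all 15338 tested genes did, and DESeq2 also called none. An unadjusted p under 0.05 stood for 6 of the 61: Unc13b, Unc13c, Unc13d, Stx17, Syt12 and Syt13, where 2.07% of all tested genes had one. Stx17 was -0.89 at E16.5 and -0.40 at E14.5, a difference of -0.47 (SE 0.18, adjusted p = 0.9999), and Unc13b was 0.49 at E16.5 and 0.20 at E14.5, a difference of 0.31 (SE 0.13, adjusted p = 0.9999). So the larger number of calls at E16.5 is not shown to be a larger effect of the deletion at that age. No gene had cKO libraries wholly above WT at one age and wholly below at the other.

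In WT cortex the genes stood mostly higher at E16.5 than at E14.5, without passing the test. Age and count table coincide in this contrast. The median log2 fold change of E16.5 over E14.5 was 0.27 over the 61 genes and -0.011 over all tested genes. None of the 61 passed in edgeR, where 2.15% of all tested genes did (0.763% higher and 1.39% lower), while 15 had an unadjusted p under 0.05, a share no larger than the 27.7% of all tested genes. DESeq2 called 5, all higher at E16.5, against 13.3% of all genes it gave an adjusted p. Snap25 averaged 117 ± 10.5 CPM at E16.5 and 65.6 ± 11.5 CPM at E14.5 in WT (SD, n = 3 each), which is 0.84 on the log2 scale (SE 0.26, adjusted p = 0.0763). The log2 fold change was 0.52 for Vamp2 (SE 0.18, adjusted p = 0.102), 0.95 for Sv2c (SE 0.33, adjusted p = 0.101) and 0.87 for Syt16 (SE 0.31, adjusted p = 0.104). Without WT B of E14.5, 12 genes passed, 10 higher and 2 lower, against 7.13% and 7.06% of all tested genes. Without cKO A or cKO B of E14.5, which share the fit's spread, 5 and 2 passed, all higher, against 11.6% and 8.2% of all in either direction. Stxbp2 and Stx4a differed little with age in WT, at 0.078 (SE 0.11) and 0.13 (SE 0.14).

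Of 48 other presynaptic genes, for scaffolds of the active zone, transmitter transporters and vesicle recycling, 10 fell and 3 rose at E16.5, against 9.88% and 5.98% of all tested genes, so the share that rose was near that of all genes. Their median log2 fold change was -0.23, beside -0.24 for the vesicle and SNARE genes. Dnm1, the dynamin that cuts recycled vesicles free, read 24.2, 22.1 and 20.01 CPM in cKO and 54.8, 45.4 and 40.2 CPM in WT (-1.08, SE 0.13, adjusted p = 0.0028). Doc2b, a calcium sensor of spontaneous release, read 3.4, 2.33 and 2.77 CPM in cKO and 10.8, 9.35 and 6.88 CPM in WT (-1.67, SE 0.23, adjusted p = 0.00401). Prrt2, a presynaptic membrane protein, read 11.7, 13.1 and 13.01 CPM in cKO and 28.4, 25.2 and 20.5 CPM in WT (-0.98, SE 0.14, adjusted p = 0.00416). In these 3 every cKO library was well below every WT library. Ppfia4, a liprin, changed by -0.98 (SE 0.14, adjusted p = 0.00485), Cadps2, of dense-core vesicle release, by -0.77 (SE 0.13, adjusted p = 0.00745), and Slc17a7, the vesicular glutamate transporter VGLUT1, by -0.73 (SE 0.13, adjusted p = 0.0107). Bin1, Rims3 and Syngr1 were also among the lower genes. The higher ones were Nsf, the ATPase that takes spent SNARE complexes apart, Cadps and Tprgl, by 0.26, 0.33 and 0.35. At E14.5, 2 of the 48 fell, Dnm1 (-1.26) and Cadps2 (-1.05), against 1.66% of all tested genes, and none rose.

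In the authors' deposited table for E16.5, whose log2 ratio is WT over knockout, 64 of the 70 genes have an adjusted p, and 27 are under 0.05, 24 of them lower and 3 higher in the knockout, against 10.8% and 6.26% of all genes with an adjusted p there. The authors' deposited table for E14.5 has 61 with an adjusted p, of which 14 are lower and 2 higher, against 6.22% and 1.68% of all.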

How the data were processed

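Total RNA of dorsal cortex was sequenced in 12 libraries, 3 in each of 4 groups set by genotype and age in the labels. Per the submitters' processing notes, STAR 2.5.2b and mm10 were used for alignment. The deposited counts are fragments (read pairs) per gene on RefSeq exons, made by featureCounts 1.5.2 with strand setting 2 and a minimum overlap of 25 bases, according to the file headers of the authors. Of the 70 genes, 10 share exon bases with a gene of the opposite strand, which that setting counts apart, and 0 with one of the same strand. Ribosomal Rn45s held 2.28% to 6.11% of a library. Libraries of a group differed pairwise by more than sampling noise (chi-square per degree of freedom of 9.51 or more). The authors' deposited tables add log2 ratios of WT over knockout with p-values (DESeq2 1.14.1, in the submitters' processing notes). Their 12 columns of library values were left out.

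Testing covered all genes and used edgeR 4.0.16 (R 4.3.3), by TMM scaling, filterByExpr and a robust quasi-likelihood F test, with Benjamini-Hochberg adjustment across the tested genes at 0.05. Each age was fitted by itself, and the contrasts between ages came from a joint fit of the 12 libraries. An SE is the absolute log2 fold change over the root of F. The scripts were tested on simulated counts. At E16.5 same-numbered cKO and WT libraries deviated together (correlations 0.112, 0.21 and 0.281). The 0.112 belongs to WT C, which had 0.107 with cKO B, so that pair hardly stands out. In the fit with a block the number was taken to pair libraries at E16.5, from the data and not the labels. No main fit used it. A count of 0 allows 3 counts, for counting error only. Members, gene lists and tests were chosen with earlier results of these data known. A few genes enter the counts and are not reported here by name. Values are given for called members (up to 5 a class by p), for the member with the smallest p where a class had none, for the 8 highest by FPKM and for 6 called genes of the other presynaptic list. Alternatives are other scalings, DESeq2 1.42.0, no filter on low counts, left-out libraries, the shared number as a block, embryo sex as a term and a threshold of 0.01.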

Additional observations from a re-analysis of the deposited data

How the results depend on the processing

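At E16.5 the 24 genes past the threshold were 24 with RLE size factors (15.7% of all), 27 with library totals alone (16.8%), 25 with no filter on low counts (11.1%) and 27 with DESeq2 (17.2%). The count was 21 in the 12-library fit (12.3%), 20 with embryo sex (10.9%) and 16 at a threshold of 0.01 (5.43%), and from 17 to 32 with 1 library left out. The share of all tested genes called moved with it, between 5.43% at a threshold of 0.01 and 32.2% with the replicate block, and between 6.5% (without WT B) and 19.0% (without cKO A) with 1 library left out. The count was 39 with the replicate block. It was 31 without cKO A and WT A together (17.8% of all), a choice made after seeing the data, where Stx18 (0.143) and Syt14 (0.0768) lost their calls. Beside the left-out libraries, single calls were lost for Stx18, Stxbp5l, Syn1, Syp and Syt1 in the 12-library fit (adjusted p from 0.0501 to 0.275), for Stx18, Syn1, Syp and Syt1 with embryo sex (0.05003 to 0.0878), for Syp with library totals alone (0.0712) and for Stx18 with no filter (0.0632) or DESeq2 (0.0515).

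At E14.5 the count of 6 moved more, and so did the share of all tested genes called. It was 15 in the 12-library fit (8.71% of all), 16 with DESeq2 (8.02%) and 22 with the replicate block (8.65%). It was 10 without WT B and cKO A together (4.15%, chosen after seeing the data), 3 with embryo sex (0.835%) and 0 at a threshold of 0.01 (0.0406%). With 1 library left out it ran from 0 to 5. It was 0 without WT C (0.0336%) or cKO C (0.0334%), 1 without WT B (0.272%), 2 without cKO B (0.272%), 3 without WT A (0.442%) and 5 without cKO A (2.35%). Correlations of same-numbered libraries were 0.272, 0.304 and -0.00218 at E14.5, and WT C correlated best with a cKO library of another number, so no pairing was assumed there. The count of 0 for the age difference did not move in any setting run. For age in WT the count of 0 was 5 with DESeq2 and from 0 to 12 with 1 library left out, 12 being without WT B of E14.5.

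Values that turned sign belonged to genes not past the threshold. The Vamp2 log2 fold change at E16.5 ran from -0.22 to 0.084 with 1 library left out, and that of Stx12 from -0.061 to 0.019, with 0.017 under library totals alone. At E14.5 Snap25 ran from -0.50 to 0.13 with 1 library left out (above 0 without cKO A) and was 0.0038 with embryo sex and 0.28 without WT B and cKO A together, where Vamp2 was 0.079. Stx12 at E14.5 ran from -0.12 to 0.096 with 1 library left out (below 0 without WT A, WT B or cKO B), and was -0.0076 in the 12-library fit, -0.004 with DESeq2, -0.0042 with RLE size factors and -0.0087 with the replicate block. Stx6 at E14.5 ran from -0.033 to 0.17 (below 0 without cKO B or cKO C). The cause was not tested. At this depth 6 of the 70 genes stayed under 10 counts in every library, among them Vamp7, whose 0 counts are not read as its level.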
